A study of Mus musculus with 4 samples.

Results

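The respiratory chain and the ATP synthase of the mitochondrial inner membrane are built from proteins of 2 genomes, and the genes described here are those of the nucleus. They were taken by their gene symbols in GENCODE M21 on GRCm38, namely the Nduf genes of complex I, the Sdh genes of complex II, the Uqcr genes and Cyc1 of complex III, the Cox4 to Cox8 genes of complex IV and the Atp5 genes of complex V. The pattern gave 87 protein-coding genes of 21897 protein-coding genes and 55401 gene identifiers in the count files, with 38 in complex I, 4 in complex II, 9 in complex III, 18 in complex IV and 18 in complex V. A further 13 non-coding genes with such symbols were left out. The symbols are names and not assignments. Ndufa4 is now placed in complex IV, Cox7a2l acts in the joining of complexes, Atp5s is a coupling factor, and Atp5o has a second record that overlaps the first and held no read.

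Electrons from NADH enter the chain at complex I and electrons from succinate at complex II, pass through coenzyme Q to complex III and through cytochrome c to complex IV, where oxygen is reduced. Complexes I, III and IV pump protons, and complex V uses the proton gradient to make ATP. The oocyte passes its mitochondria to the next generation, and supplies them with these nuclear-encoded proteins.

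RNA was measured in E18.5 fetal oocytes whose ICR mothers had been fed a normal diet (ND group) or a diet high in fat (HFD group) for 4 months and were then mated with males on the normal diet. The ovarian germ cells had been sorted by FACS for the surface antigen SSEA-1, and the labels call them primordial germ cells. Each of the 2 ND and 2 HFD samples was a pool of oocytes from several fetuses, and its polyadenylated RNA was amplified with SMART-Seq2, which needs little input. No label says which litters or mothers a pool came from, so p-values measure the spread between these pools, which may be partly technical. In such pooled RNA, fewer cells of a type and less RNA per cell cannot be told apart.

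The libraries held 8223255 and 7815015 counted reads for ND and 6456825 and 5723605 for HFD. Levels are given as CPM, the counts of a gene per 1000000 counts of its library, and 3 counts, taken as a floor, correspond to 0.365 to 0.524 CPM. Such floors cover counting error only. Of 15 germ cell markers, between 11 and 13 lay over background in each library, and their summed level was 2307 and 4523 CPM in the ND libraries and 5880 and 4734 CPM in the HFD libraries, so that germ cell RNA was present in each. Markers of other ovarian cells were also read. The 10 stromal markers summed to 2705 and 73.6 CPM in ND and 1799 and 8296 CPM in HFD, and the 12 pregranulosa markers to 204 and 422 CPM in ND and 642 and 2727 CPM in HFD. The pregranulosa sums rested on few genes. Nr2f2 held 167 CPM in ND replicate 1 and 623 CPM in HFD replicate 1, and Fst 383 CPM in ND replicate 2. In HFD replicate 2, Amhr2, Rspo1 and Nr2f2 held 1113, 920 and 639 CPM. The remaining pregranulosa markers reached at most 15.5 CPM, for Lgr5 in HFD replicate 2. The 7 blood markers were at 1976 CPM in ND replicate 1 and at 3.97 to 24.8 CPM elsewhere. Of the defining markers, Hba-a2 was at 0 in 3 libraries, Hbb-bs in ND replicate 2, Hbb-bt in HFD replicate 1 and Hba-a1 in HFD replicate 2. The 6 endothelial markers reached 700.7 CPM in HFD replicate 1, with at most 70.9 CPM in another library, and the 7 macrophage markers stayed between 11.1 and 40.9 CPM. Kdr alone held 681 of the 700.7 CPM, and Pecam1 53.9 of the 70.9 CPM, in ND replicate 2. The part of such cells in the levels below was not tested.

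Most subunit genes lay over a background limit in each library of fetal oocytes of both diets. Background was set in each library from 1135 genes for olfactory receptors, the odorant receptors of the nose, as the 99th percentile of their reads per kilobase of exon, with more than 3 counts required as well. From 80.2% to 96.0% of these olfactory receptor genes held a read in a library, and some subunit genes passed the limit on few counts. The limits were 8.47 and 9.01 reads per kilobase in ND and 7.44 and 12.5 in HFD, not scaled for depth. HFD replicate 2 had the highest limit and the fewest counts, so a gene needed a higher level to pass there. In the ND libraries, 76 and 75 of the 87 subunit genes lay over background, and in the HFD libraries 56 and 51. Among all protein-coding genes the shares were 24.9% and 22.1% in ND and 13.3% and 15.2% in HFD. The HFD shares were thus lower for the subunit genes and for the protein-coding genes as a whole. In all 4 libraries, 37 subunit genes (42.5%) were over background, against 3.36% of protein-coding genes. Only 5 were over it in no library, namely Ndufa4l2, Cox6a2, Cox7b2, Cox8b and the second record of Atp5o. The pattern of both ND libraries without either HFD library was seen for 7 genes (8.05%, against 4.67% of protein-coding genes), and the reverse pattern for 0 of the 87 (against 0.717%). With a limit of 50 CPM in place of the olfactory limit, 2 genes (2.30%, against 0.448% of protein-coding genes) passed in all libraries, Cox4i1 and Cox6c, both of complex IV.

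**Figure D1:**
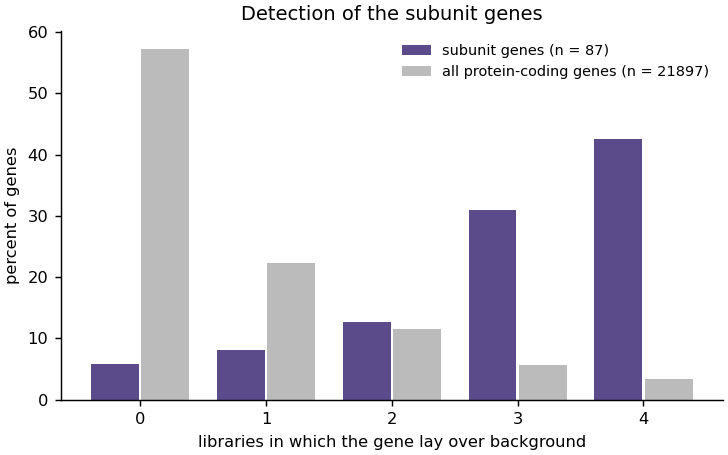
Percent of the 87 subunit genes and of the 21897 protein-coding genes that lay over the olfactory receptor background in 0 to 4 libraries. Of the subunit genes, 42.5% were over background in all 4 libraries, whereas 57.3% of protein-coding genes were over it in none.

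The levels of the subunit genes spread widely within each library. Of the 348 values (87 genes in 4 libraries), 83 were at 200 CPM or more, 214 were under 20 CPM, 19 lay from 20 to under 50 CPM and 32 from 50 to under 200 CPM. HFD replicate 1 had the most in between, with 7 and 16 genes in the latter ranges and 21 at 200 CPM or more. Which genes were high differed from library to library, also within a diet. The rank correlation of the 87 levels was 0.227 for the ND pair, 0.314 for the HFD pair and 0.302 to 0.461 for pairs across the diets. Over the protein-coding genes, many of which were near 0 in all libraries, the same correlations were 0.669 to 0.754. These correlations are across genes, which are not replicates. ND replicate 1 and HFD replicate 1 had 24 subunit genes at 50 CPM or more in common, the 2 ND libraries 14 and the 2 HFD libraries 4. Genes at that level numbered 41 and 26 within the ND pair and 37 and 11 within the HFD pair, replicate 1 first. These numbers limit how many genes a pair can share. Whether the overlaps differed from what such numbers alone would give was not tested. For the 62 genes that reached 50 CPM anywhere, the higher ND library was 28.3 times the lower at the median, and the higher HFD library 17.7 times the lower. The corresponding ratios of 3321 protein-coding genes that reached 50 CPM and were read in every library were 4.28 and 14.1. Ndufa10, an accessory subunit of complex I, shows the pattern with 1125 and 10.4 CPM for ND and 1132 and 11.7 CPM for HFD.

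**Figure D2:**
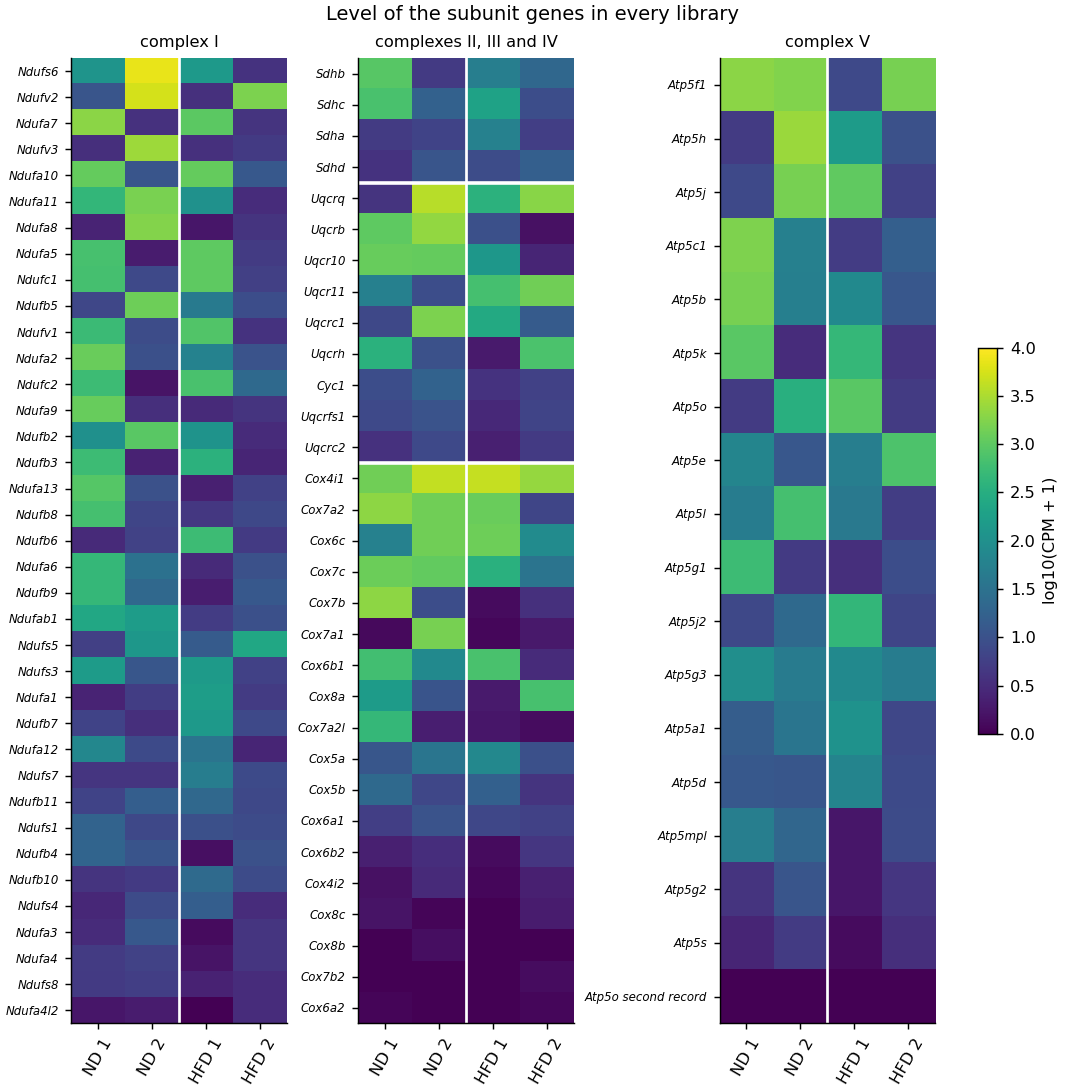
Level of the subunit genes, with 1 gene not shown, one line per gene and one column per library, as log10(CPM + 1), ordered within each complex by mean CPM. High values are scattered over the libraries, and Cox4i1 is bright in all 4 columns, with 1363 to 4468 CPM.

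Between the diets, no subunit gene passed the test, and more of the genes with the smallest p were lower than higher in HFD. The fit was edgeR's quasi-likelihood test on the counts after TMM scaling, with a Benjamini-Hochberg adjusted p under 0.05 and a fold change over 1.5 required for a call. A filter on low counts passed 78 of the 87 genes and 19335 genes in all. It left out Ndufa4l2, Cox4i2, Cox6a2, Cox7a1, Cox7a2l, Cox7b2, Cox8b, Cox8c and the second record of Atp5o. Called were 0 of the 78 and 0 of the 19335, which is 0.0% (edgeR's quasi-likelihood test, smallest Benjamini-Hochberg adjusted p 0.406 for both). At an unadjusted p under 0.05, Ndufs7 was the 1 gene higher in HFD (1.28% of those tested, against 4.82% of all genes tested) and 15 were lower (19.2%, against 6.41%). DESeq2 on all genes called 7 subunit genes higher and 18 lower among the 73 to which it gave an adjusted p, 9.59% and 24.7%, where it called 21.6% of all such genes higher and 18.7% lower. The fitted log2 fold change was above 0 for 30 genes and below 0 for 48, with a median of -0.80, against 0.03 over all genes tested. Scaling by library size alone moved the median of all genes to 0.21 and that of the subunit genes to -1.01. When 1 library was omitted at a time, the median of the subunit genes ran from -4.06, without HFD replicate 1, to -0.36. The genes at an unadjusted p under 0.05 then numbered 0 to 8 higher and 3 to 12 lower, with 8 higher and 4 lower without HFD replicate 2, 3 lower without HFD replicate 1 and 0 higher without ND replicate 1.

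Without a test, the HFD values of 4 genes both lay above both ND values, and those of 20 genes both lay below. Of the 78 that passed the filter, 4 lay above (5.13%) and 19 below (24.4%), since Cox7a2l did not pass it, and of all genes tested 13.9% lay above and 13.4% below. With 2 libraries against 2, the smallest p of an exact permutation test is 0.3333, so single genes were not tested in that way. The genes above were Ndufb7, Ndufb10, Ndufs7 and Uqcr11. With TMM-scaled CPM, 4 and 21 of the 87 genes lay above and below, and of all genes tested 16.1% and 17.8%. On that scale Atp5e took the place of Ndufb7 above, Cox7a2 and Atp5l overlapped, and Ndufb8, Uqcrc2 and Atp5g2 lay below. Of the 15 lower genes at an unadjusted p under 0.05, 5 were under 20 CPM in every library (Ndufa4, Ndufs8, Cyc1, Uqcrfs1 and Atp5g2). Also among the 15 were Ndufa8 and Ndufa9, chosen after their values were seen, whose groups overlapped. Ndufa8 had 1.46 and 1780 CPM for ND and 0.774 and 2.97 CPM for HFD. Ndufa9 had 1184 and 2.43 CPM for ND and 2.01 and 2.97 CPM for HFD. The log2 fold change was 0.037 for Ndufa8 without ND replicate 2 and -0.15 for Ndufa9 without ND replicate 1. Of the 373 tested olfactory receptor genes, which set the background, 18 were higher and 7 lower at that p, and their summed level was 1301 and 957 CPM in ND and 1228 and 1907 CPM in HFD.

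**Figure D3:**
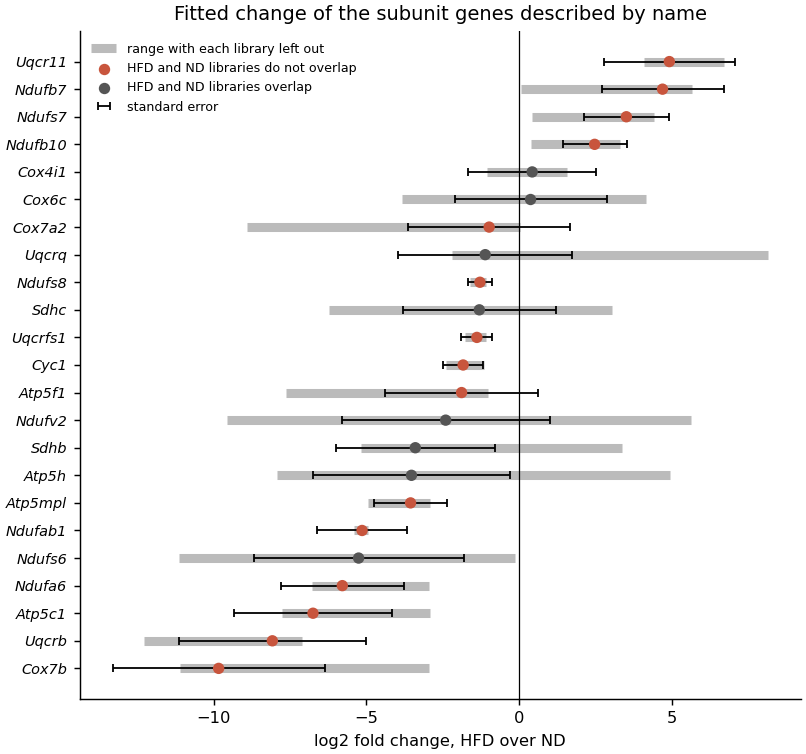
Fitted log2 fold change (HFD over ND) of 23 subunit genes with its standard error as a black bar, and the range of the fit with each library left out as a grey bar. Points in red are genes whose HFD and ND libraries do not overlap in CPM, and 8 of the 23 grey bars cross 0.

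The summed level of the complexes was lower in both HFD libraries than in both ND libraries for complexes I and V, while those of complexes II, III and IV overlapped between the diets. The 38 complex I genes summed to 12224 and 21382 CPM for ND and 7709 and 3790.4 CPM for HFD. The 18 complex V genes summed to 7046 and 6988 CPM for ND and 3508 and 2439.6 CPM for HFD. Means were 16803 ± 6475 CPM (SD, n = 2) for ND and 5749.8 ± 2771 CPM (SD, n = 2) for HFD in complex I, a ratio of 2.92, and 7017 ± 41.02 CPM (SD, n = 2) for ND and 2974 ± 756 CPM (SD, n = 2) for HFD in complex V, a ratio of 2.36. These sums have no p, since they are scores over chosen genes, and they rest on few genes. With the highest gene of each library taken out, both kept the HFD libraries below the ND libraries, and the HFD libraries of complex IV then also lay below. The same order for I and V was found with TMM-scaled CPM and with reads per kilobase scaled to a common library sum. With TMM-scaled CPM, the complex I sums were 12288 and 23231 CPM for ND and 11312 and 2598 CPM for HFD. Replicate 1 of the 2 diets was thus close on that scale. With reads per kilobase, complex IV also had both HFD libraries below both ND libraries. All 87 genes together took 3.16% and 4.69% of the counts in ND and 2.11% and 1.34% in HFD.

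**Figure D4:**
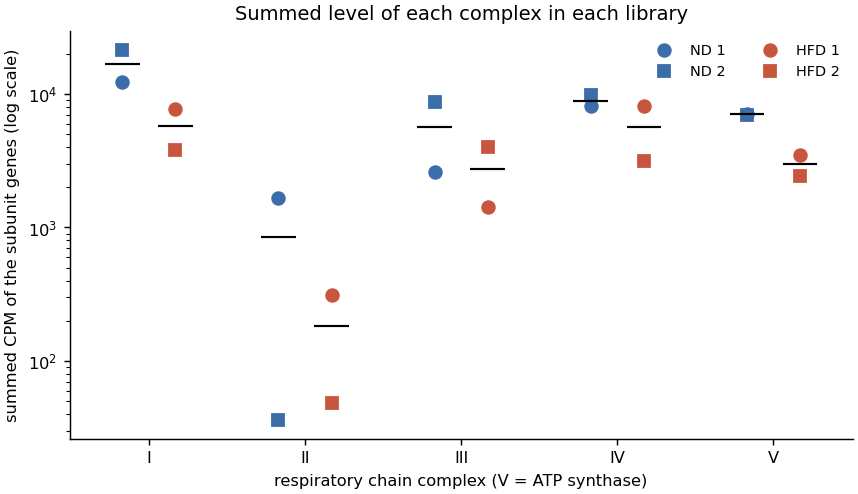
Summed CPM of the genes of each complex in each library on a log axis, with ND in blue, HFD in red, replicate 1 as circles, replicate 2 as squares and the mean of each diet as a line. For complexes I and V both red points lie under both blue points, and for complex II the ND points are 1653 and 36.1 CPM.

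Complex I takes electrons from NADH through a flavin and a chain of iron-sulfur clusters to coenzyme Q. Its most abundant genes were high in some libraries and low in others. Ndufs6, a zinc-binding accessory subunit, was at 116 and 7239.8 CPM for ND and 141 and 2.795 CPM for HFD, and 33.9% of the complex I sum of ND replicate 2 came from it. Ndufv2, an iron-sulfur subunit of the NADH-binding module, stood at 10.2 and 5436 CPM for ND and 2.63 and 1626 CPM for HFD. Both genes overlapped between the diets, with log2 fold changes of -5.25 ± 3.44 (SE) and -2.40 ± 3.40 (SE), which without ND replicate 2 were -0.12 and 5.62. The highest gene of the complex was Ndufa7 in ND replicate 1, Ndufs6 in ND replicate 2 and Ndufa10 in HFD replicate 1.

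Ndufab1 (chromosome 7, 122085403 to 122101886), the mitochondrial acyl carrier protein that also serves fatty acid and lipoate synthesis, had the smallest p of the 87 genes. Its levels were 246 and 164 CPM for ND and 4.18 and 8.56 CPM for HFD, on 2020 and 1278 counts for ND and 27 and 49 counts for HFD. Both HFD values lay far below both ND values, and the log2 fold change was -5.14 ± 1.46 (SE) with an unadjusted p of 0.0139. Over fits that each omit 1 library it was -5.41 to -4.96. Ndufa6, an accessory subunit that holds this carrier protein, read 462 and 29.7 CPM for ND and 2.01 and 8.74 CPM for HFD. Its log2 fold change was -5.79 ± 2.02 (SE), the groups did not overlap, and the ND libraries themselves differed 15.6 times. Ndufs8, an iron-sulfur subunit of the arm that leads to coenzyme Q, had 3.77 and 4.61 CPM for ND and 1.39 and 2.27 CPM for HFD. This is a small difference of -1.28 ± 0.38 (SE) on the log2 scale with an unadjusted p of 0.0146, on 31 and 36 counts for ND and 9 and 13 counts for HFD, and the HFD libraries were not over background. Ndufa11, Ndufa13, Ndufa4, Ndufb4 and Ndufb9, named here after their values were seen, were the other complex I genes with both HFD values below both ND values.

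The complex I genes whose HFD values lay above both ND values had a high HFD replicate 1 and a second HFD library close to ND. Ndufs7, an iron-sulfur subunit next to the quinone site, had 3.16 and 3.07 CPM for ND and 47.7 and 6.99 CPM for HFD, a log2 fold change of 3.51 ± 1.39 (SE) and an unadjusted p of 0.0463. Ndufb7, an accessory subunit of the membrane arm, had 5.35 and 2.43 CPM for ND and 139 and 6.64 CPM for HFD with a log2 fold change of 4.70 ± 1.997 (SE). Without HFD replicate 1 the fold changes were 0.44 for Ndufs7 and 0.06 for Ndufb7. For Ndufb10, another subunit of the membrane arm, the levels were 3.04 and 3.71 CPM for ND and 23.5 and 7.34 CPM for HFD and the fold change was 2.47 ± 1.05 (SE), or 0.38 without HFD replicate 1. In HFD replicate 2 the 3 genes stood within a few CPM of the ND libraries, and with TMM-scaled CPM the groups of Ndufb7 overlapped.

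The remaining complex I genes over background in all libraries overlapped between the diets. In the order ND replicate 1, ND replicate 2, HFD replicate 1 and HFD replicate 2, Ndufs3, a core subunit near the quinone site, read 159, 10.9, 149.6 and 4.89 CPM. In that order Ndufa2, an accessory subunit, read 1236, 8.57, 59.3 and 9.61 CPM, and Ndufc1, a small membrane subunit, 663, 6.65, 1003 and 4.72 CPM. Each of these was high in replicate 1 of one or both diets. Ndufa1 at 1.46, 4.35, 166 and 4.02 CPM and Ndufb6 at 1.95, 5.25, 561 and 3.84 CPM, both accessory subunits, were high in HFD replicate 1 alone. Ndufs5 had 4.74, 132, 13.3 and 242 CPM, and Ndufb11, an X-linked subunit, had 5.35, 14.6, 21.8 and 6.46 CPM. The other complex I genes were over background in 3 libraries (17 genes), in 2 (6 genes, with Ndufab1, Ndufb7 and Ndufs8 among them), in 1 (Ndufs1 and Ndufv3) or in none (Ndufa4l2).

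Complex II, the succinate dehydrogenase of the citric acid cycle, was highest in ND replicate 1. Its genes summed to 1653 and 36.1 CPM for ND and 315 and 48.2 CPM for HFD. Sdhb, the iron-sulfur subunit, was at 929 and 3.84 CPM for ND and 51.1 and 20.4 CPM for HFD. Sdhc, a membrane anchor, was at 717 and 16.4 CPM for ND and 201 and 7.86 CPM for HFD. In both genes ND replicate 1 exceeded the other libraries, while ND replicate 2 was the lowest library for Sdhb and lay between the HFD libraries for Sdhc. The log2 fold changes of -3.40 ± 2.61 and -1.30 ± 2.50 (SE) became positive without ND replicate 1. Sdhd, the second anchor, read 2.92 and 10.5 CPM for ND and 7.59 and 15.4 CPM for HFD. Sdha, the flavoprotein, reached 55.4 CPM in HFD replicate 1 and at most 5.37 CPM elsewhere, so that the 4 subunits of the enzyme were not high in the same libraries.

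Complex III passes electrons from coenzyme Q to cytochrome c. It held the one gene of the 87 that was at 200 CPM or more in both HFD libraries and below that in both ND libraries. Uqcr11 (chromosome 10, 80402997 to 80406830), its smallest subunit, had 53.5 and 7.81 CPM for ND and 656 and 1349 CPM for HFD, on 440 and 61 counts for ND and 4236 and 7720 counts for HFD. The HFD values differed 2.06 times from each other, and each exceeded both ND values by more than 10 times. The log2 fold change was 4.92 ± 2.14 (SE) with an unadjusted p of 0.0659, which misses the limit, and was 4.08 to 6.72 with each library left out. DESeq2 on all genes gave Uqcr11 an adjusted p of 0.000888. Uqcrb, a subunit at the quinone-binding side, showed the reverse pattern with 1000.1 and 2216 CPM for ND and 8.36 and 0.524 CPM for HFD. Its HFD counts were 54 and 3, the log2 fold change was -8.08 ± 3.07 (SE), the unadjusted p 0.0415, and the range with each library left out -12.27 to -7.11.

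The nuclear-encoded catalytic subunits of complex III were low in every library. Cyc1, cytochrome c1, had 7.904 and 17.1 CPM for ND and 2.79 and 4.89 CPM for HFD with a log2 fold change of -1.83 ± 0.66 (SE) and an unadjusted p of 0.0318. Uqcrfs1, the Rieske iron-sulfur protein, had 6.57 and 9.72 CPM for ND and 1.86 and 5.59 CPM for HFD with -1.38 ± 0.51 (SE) and 0.0353. In both genes the HFD libraries lay below the ND libraries by a few CPM and remained over background. Uqcr10 had 1156 and 1117 CPM for ND and 129 and 1.57 CPM for HFD and also did not overlap. Uqcrq was the most abundant gene of the complex at 3.04 and 3678 CPM for ND and 369 and 1917 CPM for HFD, low in ND replicate 1 and high in HFD replicate 2. Its fold change of -1.11 ± 2.84 (SE) became 8.15 without ND replicate 2 and was negative with any other library left out, and it was 2.79 with limma-voom and 2.90 with the replicate block. Uqcrc1, a core protein, read 6.32, 1638, 264 and 12.9 CPM in the order given above. Uqcrh and Uqcrc2 were over background in 3 and 2 libraries.

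Complex IV reduces oxygen, and its nuclear subunits surround a core that the mitochondrial genome encodes. Cox4i1 (chromosome 8, 120668222 to 120674207), the largest of the nuclear subunits, was high in every library, with 1363 and 4297 CPM for ND and 4468 and 2301 CPM for HFD. It was the highest subunit gene in both HFD libraries, where it took 54.9% and 73.6% of the complex IV sum. The groups overlapped, with a log2 fold change of 0.43 ± 2.10 (SE) that changed sign without ND replicate 1 or without HFD replicate 1. Cox6c had 55.6 and 1334 CPM for ND and 1292 and 84.6 CPM for HFD, and its fold change of 0.38 ± 2.49 (SE) changed sign without the same libraries and also with scaling by library size alone. Cox7c had 1241 and 1097 CPM for ND and 347 and 33.9 CPM for HFD and Cox7a2 2056 and 1367 CPM for ND and 1225 and 5.77 CPM for HFD. For both, each HFD value lay below each ND value, with log2 fold changes of -2.20 ± 2.18 and -0.98 ± 2.66 (SE), and HFD replicate 2 was the lowest library. Without that library the fold change of Cox7a2 was 0.029, and with TMM-scaled CPM its groups overlapped.

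Cox7b, an X-linked subunit that assembly needs, was high in ND replicate 1 alone, at 2094, 7.68, 0.3098 and 2.62 CPM in the order given above. Its counts were 17217 and 60 counts for ND and 2 and 15 counts for HFD. Although the groups did not overlap and the log2 fold change was -9.84 ± 3.47 (SE, unadjusted p 0.0296), the second ND library was closer to HFD than to the first ND library. Without ND replicate 1 the fold change was -2.96. Cox5a was at 10.9, 35.2, 72.6 and 8.56 CPM, Cox6b1 at 604, 77.03, 712 and 2.097 CPM, Cox8a at 158, 10.1, 0.929 and 674 CPM and Cox6a1 at 4.62, 9.47, 6.04 and 4.89 CPM. All 4 overlapped between the diets, and Cox6a1 stayed under 10 CPM in every library. Cox5b was over background in 3 libraries.

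Complex V, the ATP synthase, has a catalytic head, a rotor and a peripheral stalk. In the head, Atp5b, the catalytic beta subunit, was at 1509.6 and 52.6 CPM for ND and 78.1 and 11.2 CPM for HFD. Atp5c1, the gamma subunit of the rotor, was at 1704 and 53.5 CPM for ND and 4.18 and 15.03 CPM for HFD, and its HFD values lay below both ND values. The log2 fold change of Atp5c1 was -6.75 ± 2.58 (SE) with an unadjusted p of 0.0427, and -2.90 without ND replicate 1. Atp5d and Atp5e, the delta and epsilon subunits of the rotor, read 11.6, 10.6, 62.7 and 6.99 CPM and 65.8, 11.3, 49.7 and 766 CPM in the order given above. The delta subunit was highest in HFD replicate 1 and the epsilon subunit in HFD replicate 2. Atp5a1, the alpha subunit, was over background in 3 libraries.

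The peripheral stalk was led by Atp5f1, its subunit b, with 2021 and 1735 CPM for ND and 6.66 and 1536 CPM for HFD. Atp5h, subunit d of the stalk, was at 3.89 and 2514 CPM for ND and 158 and 8.91 CPM for HFD. For Atp5f1 the HFD libraries lay below the ND libraries, with HFD replicate 2 close to them, and the log2 fold change was -1.88 ± 2.50 (SE). That of Atp5h was -3.52 ± 3.23 (SE) and became positive without ND replicate 2. Atp5mpl, a small proteolipid of the membrane part, had 50.1 and 19.6 CPM for ND and 0.774 and 7.16 CPM for HFD, a log2 fold change of -3.55 ± 1.19 (SE), an unadjusted p of 0.02498 and a range of -4.94 to -2.91 with each library left out. Atp5k, subunit e, was at 953, 2.18, 463 and 3.14 CPM, high in replicate 1 of both diets. Atp5g3 (chromosome 2, 73908447 to 73911326), which encodes the c subunit of the rotor ring, varied little, with 95.1 and 44.9 CPM for ND and 78.2 and 46.3 CPM for HFD and a log2 fold change of 0.02 ± 1.29 (SE). Atp5g1 and Atp5g2, which encode the same mature c subunit, were over background in 1 and 2 libraries. The other genes were over background in 3 libraries (Atp5j, Atp5j2, Atp5l and Atp5o), in 1 (Atp5s) or in none (the second record of Atp5o).

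Several subunits have forms for heart, muscle, lung or testis, and the libraries of fetal oocytes mainly held the widely expressed forms. To compare genes, levels are given here as reads per kilobase of exon and 1000000 counts, in the order ND replicate 1, ND replicate 2, HFD replicate 1 and HFD replicate 2. Cox4i1 was at 879.6, 2772, 2882 and 1485 and the lung form Cox4i2 at 0.617, 2.598, 0.197 and 1.55. Cox6a1 read 6.58, 13.5, 8.604 and 6.97, where the muscle form Cox6a2 read 0.179, 0, 0 and 0.257. For Cox6b1 the levels were 853, 109, 1005 and 2.96, and for the testis form Cox6b2 they were 1.098, 2.08, 0.2796 and 2.996. In each of these pairs the widely expressed form was higher in at least 3 libraries, and the HFD replicate 2 values of Cox6b1 and Cox6b2 differed little, at 12 and 19 counts.

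Cox7a2 was at 2178, 1448, 1298 and 6.11 and its muscle form Cox7a1 at 0.455, 2811, 0.289 and 1.63, the one tissue-restricted form that exceeded its partner clearly, in ND replicate 2. Cox7a1 had 2 and 11754 counts for ND and 1 and 5 counts for HFD and did not pass the filter. The 11 striated muscle markers summed to 42.9 CPM in that library and to 17.2 to 57.7 CPM in the others, and only Myl1 was at 0, in HFD replicate 2. Cox7b read 1725, 6.32, 0.255 and 2.16 and the testis form Cox7b2 0, 0, 0 and 0.645. Cox8a read 256, 16.3, 1.501 and 1088, Cox8b 0, 1.07, 0 and 0 and the testis form Cox8c 1.33, 0.279, 0 and 2.29. Ndufa4 read 2.91, 3.71, 0.449 and 2.28 and Ndufa4l2 0.666, 0.935, 0 and 2.07. Of the 8 tissue-restricted forms, 4 were over background in no library and 0 in all, while 6 of the 10 widely expressed partners were over it in all. The tissue-restricted forms included 1 that passed the filter, Cox6b2, with a log2 fold change of -0.43 ± 0.99 (SE). The coding sequences of these widely expressed and tissue-restricted partners, aligned end to end, were 51.5% to 65.1% identical.

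**Figure D5:**
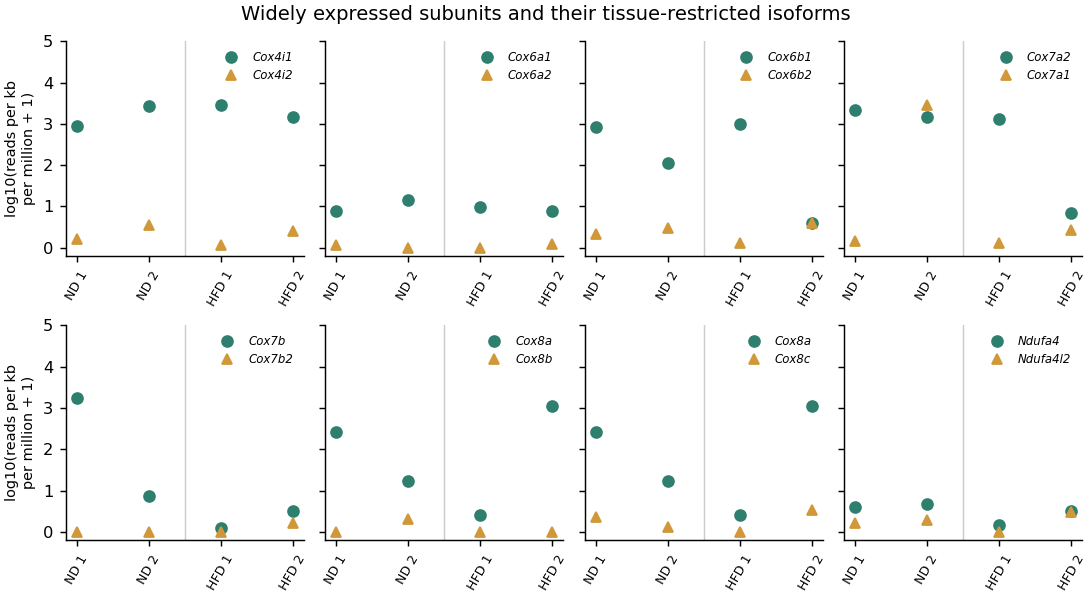
Levels of widely expressed subunits (circles) and their tissue-restricted forms (triangles) in each library, as log10(reads per kilobase of exon and 1000000 counts + 1). The triangles stay near 0 except for Cox7a1 in ND 2, and Cox8a is shown against each of its 2 partners.

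Of 18 listed subunits of the catalytic centres and the rotor, 9 had a fold change above 0 and 9 below 0, with a median of -0.07. The list left out the c subunit genes of the rotor ring, Atp5g1, Atp5g2 and Atp5g3, with log2 fold changes of -5.94, -2.07 and 0.02. At an unadjusted p under 0.05, 1 of the 18 was higher (Ndufs7) and 4 were lower (Ndufs8, Cyc1, Uqcrfs1 and Atp5c1). Over all genes tested, 4.82% were higher and 6.41% lower at that p. Of the 18, 12 were over background in all libraries. The summed level of the 18 was 5698 and 5702 CPM in ND and 1657 and 4242 CPM in HFD. Ndufv1 and Ndufv2 are given together as partners, and Ndufv1 was chosen after its values were seen. Both belong to the NADH-binding module of complex I. On the same scale, Ndufv1 read 201, 2.82, 312 and 1.06 and Ndufv2 4.76, 2532, 1.23 and 757 in the order given above, so that each was high where the other was low.

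Promoters of these genes are known to hold sites for the factors NRF1, GABP and YY1. RefSeq windows from 250 bases before to 50 bases after each start (GRCm38.p6) were at hand for 69 of the 87 genes, 74 windows in all. The NRF1 core GCGCATGC, on either strand, was in 13.5% of them, against 3.51% of 21262 windows of protein-coding genes and 2.71% of all 32851. CCGGAA, the core bound by ETS factors such as GABP, was in 35.1%, against 18.7% and 14.9%. The YY1 core AAGATGGC was in 13.5%, against 3.05% and 2.75%. TATAAA and CCAAT were in 10.8% and 41.9%, against 12.6% and 38.2% of the windows of protein-coding genes. A match in such a window is a description of letters and not of binding, and short cores can overlap other motifs. The 5 windows that held both the NRF1 core and the ETS core are shown by the 30 bases around the NRF1 core, since they span genes with opposite patterns. The core, on one strand or both, is in capitals.
Atp5k, chr5:108434430-108434459, minus strand: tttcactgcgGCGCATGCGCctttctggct
Atp5l, chr9:44920963-44920992, minus strand: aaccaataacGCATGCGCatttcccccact
Cox6a1, chr5:115349101-115349130, minus strand: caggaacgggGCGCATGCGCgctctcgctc
Sdhb, chr4:140961206-140961235, plus strand: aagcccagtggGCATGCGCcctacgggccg
Uqcr11, chr10:80406807-80406836, minus strand: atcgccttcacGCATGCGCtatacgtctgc
Of these genes, Uqcr11 was high in both HFD libraries, Sdhb and Atp5k were highest in ND replicate 1, Atp5l was at 47.3, 651, 41.04 and 4.37 CPM with its HFD values below ND except with TMM-scaled CPM, and Cox6a1 was low throughout.

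Reads of some of these genes may be shared with near-identical copies or overlapping genes. A stretch of at least 150 bases at 98% identity or more in another gene was found for 28 of the 87 genes, 14 of them in a pseudogene, and Atp5l had the most pseudogene copies with 7. The pseudogene copies held 0.117% to 1.94% as many counts as the 87 genes. Ndufs5 is the gene most exposed, with 1384 counts beside 1460 on its copy BC002163 in HFD replicate 2, and the copies of Cox7c held 536 and 721 counts for ND and 119 and 2 for HFD. Exons of 31 genes shared bases with another gene record, 39.0% of those of Ndufb6, 29.98% of those of Ndufa13 and 47.9% of those of Atp5o. For Atp5o the overlapping records include its own second record, which is itself among the 31. The strand setting and the treatment of reads with several hits are not given in the sources used here, so levels of these genes are uncertain to that extent.

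Other genes of the pathway were read from the same fit, which called 0 of them. In that fit, 4.82% of all genes tested were higher and 6.41% lower at an unadjusted p under 0.05. Of the 52 assembly factors, which build the complexes, 45 were tested, with 24 fold changes above 0 and 21 below, 3 and 5 of them at an unadjusted p under 0.05, and a median of 0.16. The 15 genes for cytochrome c and coenzyme Q had 4 above and 11 below, 1 and 4 of them at that p, and a median of -0.79. Among these, chosen after their values were seen, Pdss1, which starts the coenzyme Q tail, had 3722 and 2821 counts for ND and 4 and 2 counts for HFD. Cycs, the cytochrome c of body cells, had 1088 and 2278 counts for ND and 17 and 14 counts for HFD. Coq8a, which supports coenzyme Q synthesis, had 18 and 6 counts for ND and 81 and 114 counts for HFD. Hence the first and the second were low in both HFD libraries and the third was higher in both.

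The 18 regulators of mitochondrial biogenesis had 9 above and 9 below and a median of -0.12. At an unadjusted p under 0.05 were 2 and 0 of them, against 4.82% and 6.41% of all genes tested. The 2 were Polrmt, the mitochondrial RNA polymerase, with 37 and 33 counts for ND and 767 and 137 counts for HFD, and Polg2, a DNA polymerase subunit, with 25 and 19 counts for ND and 25 and 46 counts for HFD. The 13 subunits that the mitochondrial genome encodes had 3 above and 10 below, 0 and 1 of them at that p, with a median of -0.74. They summed to 48862 and 44153 CPM in ND and 11177 and 34838 CPM in HFD, so that, as for complexes I and V, both HFD sums lay below both ND sums. Of these 13 genes, 7 had both HFD values below both ND values and 0 had them above, where 13.4% and 13.9% of all genes tested did so.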

How the data were processed

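Each of the 4 files held raw counts per Ensembl gene identifier for one library. Per the labels and the study's methods, the authors made the deposited counts with featureCounts, after trimming by Trim Galore and HISAT2 alignment to mm10. The annotation release, strand setting and handling of multiple hits are not given in the sources used here. Depth was 5723605 to 8223255 counts per library. GENCODE M21, which lacked 260 identifiers, gave names, positions and exon lengths.

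The genes and lists were chosen with earlier results of these data known. Counts were tested in R 4.3.3 with edgeR 4.0.16 (quasi-likelihood, legacy FALSE, TMM, filterByExpr, Benjamini-Hochberg over 19335 genes). A standard error is the size of the fitted log2 change divided by the root of its F statistic. Alternatives were other scalings and filters, DESeq2 1.42.0, limma-voom (limma 3.58.1), the legacy fit, a replicate block and each library left out. The functions were tested on simulated data. Replicate numbers were used to pair the libraries only in the replicate block. Deviations from group means of libraries with the same number correlated at 0.011 over 19335 genes. Whether such libraries shared a batch was not tested.

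Named with values were the 2 highest genes per complex and per library, all genes over background in every library, and the 5 with the smallest p per direction among genes whose groups did not overlap, except that 1 gene is not reported here by name. Where lists are given (catalytic subunits, forms of subunits, assembly, coenzyme Q, biogenesis, mitochondrially encoded, cell type markers), genes were counted and not tested as sets. Protein sequences were not used here, so coding sequences were aligned in place of proteins.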

Additional observations from a re-analysis of the deposited data

How the results depend on the processing

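Calls depended on the tool. DESeq2 called 7 subunit genes higher and 18 lower on all genes, and 7 and 16 on the filtered genes, where over all genes it called 1350 and 1168, and 1039 and 1063. The legacy fit called 12 genes higher and 22 lower in all. No other setting, and no library left out, made a call. At an unadjusted p under 0.05, the counts of subunit genes higher and lower were 2 and 8 with library size only, 2 higher with no filter, 2 and 7 with at least 10 counts in every library, 9 and 23 with DESeq2 on all genes, 9 higher with DESeq2 on filtered genes, 0 lower with limma-voom and 0 and 5 with the legacy fit. With the replicate block they were 0 and 7, and the block called 0 genes. Leaving out one library gave 0 to 8 higher and 3 to 12 lower, and medians of -4.06 to -0.36. The log2 ratio of complex V was -1.51 without its highest gene, and 2 genes were over 50 CPM in every library.

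Of 203 fold changes of 23 named genes under other settings, 200 kept their sign. Uqcrq reversed to 2.79 with limma-voom and 2.90 with the replicate block, and Cox6c to -0.022 with library size only. With single libraries left out, signs turned for Ndufv2 (-9.56 to 5.62), Sdhb (-5.18 to 3.37), Sdhc (-6.21 to 3.05), Uqcrq (-2.20 to 8.15), Cox4i1 (-1.06 to 1.57), Cox6c (-3.82 to 4.16), Cox7a2 (-8.92 to 0.029) and Atp5h (-7.92 to 4.95). The cause was not tested. A library left out leaves its diet with 1 library, assumed to vary like the other. Counts of 3 or fewer set the fold changes of the lowest genes.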
